A study of Mus musculus with 6 samples.

Results

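The quinone, carbonyl and aldo-keto reductase genes described here are 9 mouse genes, Nqo1, Cbr1, Cbr3, Akr1a1, Akr1b3, Akr1b7, Akr1b8, Akr1c13 and Ptgr1, found by symbol among the 56980 Ensembl gene identifiers of a count table. All 9 had an identifier in the table and all 9 passed the filter on low counts, as members of a tested set of 17901 genes. The study sequenced messenger RNA from lung tumours of a mouse model of small cell lung cancer about 4 months after virus was given, in 3 Keap1 knockout samples and 3 control samples, to ask how loss of Keap1 alters gene expression. Samples of both groups are titled QKO tumours, while the count columns are headed QKO for the controls and KP for the knockouts. QKO and KP are not spelled out in the labels. The labels also do not say how Keap1 was inactivated and do not tell if each sample is a different animal. The p-values therefore rest on the variation among these libraries alone, and how much of it lies between animals cannot be told. In bulk tumour RNA, a change in the number of cells that express a gene cannot be told apart from a change in RNA per cell.

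These enzymes reduce reactive carbonyls and quinones mostly with electrons from NADPH. NQO1 passes a pair of electrons to quinones at once, which avoids the semiquinone radical. The carbonyl reductases CBR1 and CBR3 belong to the short-chain dehydrogenases, the AKR enzymes form a superfamily of their own, and PTGR1 reduces the double bond of alkenals and of eicosanoid breakdown products. KEAP1 holds the transcription factor NRF2 at a low level by marking it for degradation. Several of the reductase genes, Nqo1 first among them, are widely used as readouts of NRF2, which binds a short DNA motif called the antioxidant response element.

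Promoter windows are shown for the 5 members with the largest log2 fold changes, so that the sequence next to their start sites can be read beside their levels. Each window runs from 250 bases before the RefSeq start site to 50 bases after it, in the 5′ to 3′ direction of the gene, and comes from RefSeq on GRCm38.p6, an earlier build than the mm39 named in the submitters' processing notes. RefSeq windows were matched for 8 of the 9 members. Capitals mark GC, CCAAT and TATA boxes on either strand, whose letters are given after the sequences. The windows are Nqo1 at chr8:107403156-107403455 (minus strand), Cbr1 at chr16:93607587-93607886 (plus), Cbr3 at chr16:93682969-93683268 (plus), Ptgr1 at chr4:58987029-58987328 (minus) and Akr1b8 at chr6:34353896-34354195 (plus).
Nqo1: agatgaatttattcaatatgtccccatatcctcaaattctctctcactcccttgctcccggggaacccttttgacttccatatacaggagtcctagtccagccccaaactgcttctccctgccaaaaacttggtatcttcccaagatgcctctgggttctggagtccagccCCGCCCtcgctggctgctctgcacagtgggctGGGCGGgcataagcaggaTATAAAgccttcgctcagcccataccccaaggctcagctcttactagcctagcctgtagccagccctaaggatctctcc
Cbr1: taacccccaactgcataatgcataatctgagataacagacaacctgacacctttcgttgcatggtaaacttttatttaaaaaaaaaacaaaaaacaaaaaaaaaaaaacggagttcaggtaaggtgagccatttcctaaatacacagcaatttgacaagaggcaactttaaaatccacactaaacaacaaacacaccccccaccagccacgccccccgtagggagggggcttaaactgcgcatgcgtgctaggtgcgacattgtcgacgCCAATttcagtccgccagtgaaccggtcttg
Cbr3: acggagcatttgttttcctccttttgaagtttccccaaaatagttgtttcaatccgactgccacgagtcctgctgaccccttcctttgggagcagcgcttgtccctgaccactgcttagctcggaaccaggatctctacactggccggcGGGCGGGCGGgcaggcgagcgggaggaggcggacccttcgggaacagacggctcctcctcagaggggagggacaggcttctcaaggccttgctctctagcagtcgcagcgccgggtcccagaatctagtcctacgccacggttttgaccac
Ptgr1: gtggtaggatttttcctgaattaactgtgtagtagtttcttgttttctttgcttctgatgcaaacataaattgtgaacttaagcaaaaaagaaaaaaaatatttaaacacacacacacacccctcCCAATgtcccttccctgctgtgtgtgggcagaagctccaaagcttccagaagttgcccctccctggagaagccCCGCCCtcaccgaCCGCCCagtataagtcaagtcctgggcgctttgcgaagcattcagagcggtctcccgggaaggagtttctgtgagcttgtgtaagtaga
Akr1b8: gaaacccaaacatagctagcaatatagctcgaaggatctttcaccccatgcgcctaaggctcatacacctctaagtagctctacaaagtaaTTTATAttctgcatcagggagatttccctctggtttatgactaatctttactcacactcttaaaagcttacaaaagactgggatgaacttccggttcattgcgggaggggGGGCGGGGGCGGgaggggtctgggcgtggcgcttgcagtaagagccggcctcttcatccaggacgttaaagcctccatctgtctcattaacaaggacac

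The core letters of the antioxidant response element, TGACNNNGC, were found in 0 of the 8 member windows on either strand, against 12.4% of all 32851 RefSeq windows of this length, and the AP-1 letters TGACTCA in 0 of 8 against 5.2%. These windows cover only the start site, and no match says only that the letters are not in them. GC boxes (letters GGGCGG) stood in 4 of the 8 windows, those of Nqo1, Cbr3, Ptgr1 and Akr1b8, against 35.7% of all windows. The letters CCAAT stood in 3 windows, against 37.4% of all. TATA boxes, searched as TATAAA, stood in 2, against 13.6%, and that of Nqo1 lay at -29 on the strand of the gene. Cbr1, which lies near Cbr3 on chromosome 16, had no GC box in its window and 1 CCAAT box, which began at base 20 after the start. The share of G and C was 60.0% in the window of Cbr3, 53.7% in that of Nqo1 and 44.0% in that of Cbr1, against a median of 52.7% over all windows.

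Tumours with Keap1 knockout held far more RNA of the quinone reductase gene Nqo1 and of the carbonyl reductase genes Cbr1 and Cbr3 than control tumours did. The alkenal reductase gene Ptgr1 had a 30.3-fold higher mean without passing the test, and the aldo-keto reductases, none of which passed, ranged from an 8.40-fold higher mean (Akr1b8) to a barely detected gene (Akr1b7). Levels are CPM, reads of a gene scaled to a common library total. Adjusted p-values are those of the edgeR quasi-likelihood fit, by Benjamini and Hochberg's method over all tested genes, and a gene passed below 0.05. Nqo1, Cbr1 and Cbr3 rose, 3 of 9 members, against 2.42% of all tested genes called higher in the knockout and 4.31% called in either direction. edgeR called 0 members lower, against 1.89% of all genes, with 0 lower at an unadjusted p below 0.05, against 16.9% of all genes, 0 lower by DESeq2, against 14.4%, and 0 by limma voom, against 2.25%. At an unadjusted p below 0.05, 6 of 9 members were higher in edgeR, against 13.8% of all genes. Limma voom called 4 members higher, against 3.71%, and with a spread per genotype 4, against 2.21%. Without control 3 edgeR called 5 members higher, against 8.4% of the genes then tested. Without knockout 1, 2 or 3 it called 0 members, and 2, 0 and 0 of all genes then tested. In 7 members the lowest knockout exceeded the highest control, which held for 21.5% of tested genes. The median log2 fold change was 3.07 over the 9 members and -0.08 over all tested genes. Summed over the 9 genes, the level was 5524 ± 549 CPM in knockouts and 694 ± 186 CPM in controls (SD, n = 3 each).

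**Figure D1:**
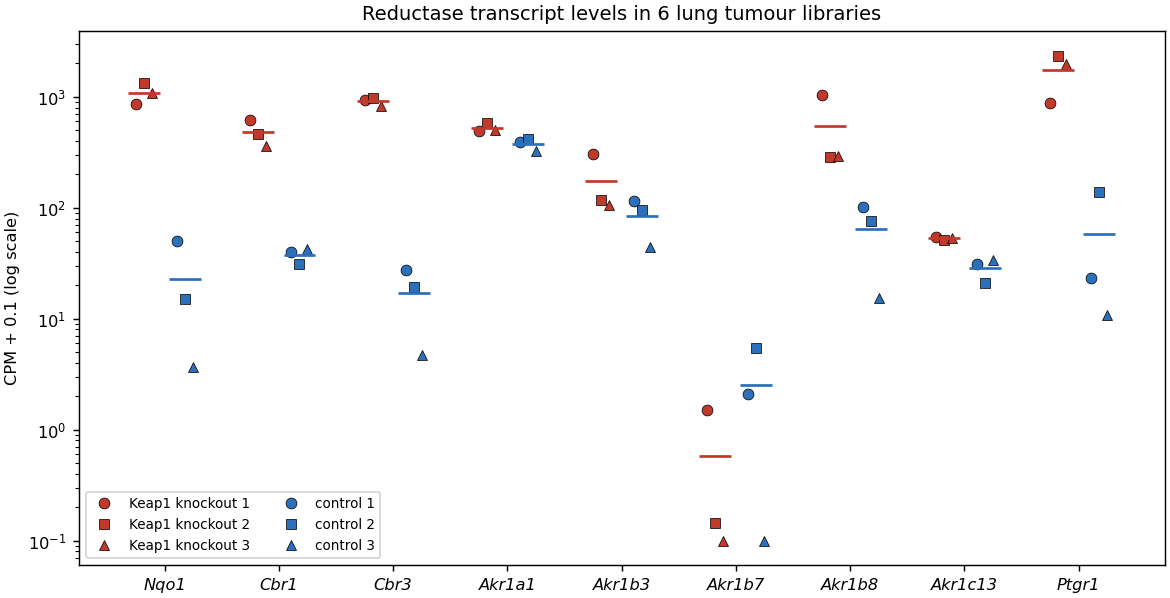
CPM (plus 0.1, log scale) of the 9 reductase genes in each of the 3 Keap1 knockout libraries (red) and the 3 control libraries (blue), with bars at the group means. Nqo1, Cbr1, Cbr3, Ptgr1 and Akr1b8 are separated by genotype, Akr1a1 and Akr1c13 by a small margin, and Akr1b3 and Akr1b7 overlap.

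Total counts ran from 18731515 to 23759892 per library. The 3 knockout libraries correlated at 0.964 to 0.979 across genes in log2 CPM, and the 3 control libraries at 0.815 to 0.912. Keap1 itself stood at 67.5, 93.0 and 79.9 CPM in knockouts 1 to 3 and at 78.4, 74.5 and 58.7 CPM in controls 1 to 3, and Nfe2l2, which encodes NRF2, at 160.3 ± 5.93 CPM in knockouts and 138 ± 74.8 CPM in controls (SD, n = 3 each). A disrupted gene can keep its transcript, so the Keap1 level does not check the labels. Chga, which encodes the neuroendocrine granule protein chromogranin A, was near absent in the knockouts, with 2, 8 and 0 reads in knockouts 1 to 3 and 156, 10 and 19038 reads in controls 1 to 3. The 6 neuroendocrine markers together summed to 165, 50.1 and 49.2 CPM in knockouts 1 to 3 and to 89.3, 23.4 and 4543 CPM in controls 1 to 3. Most of the sum in knockout 1 came from Calca, the calcitonin gene, at 116 CPM. The summed level of 6 club cell markers was 2998 to 7421 CPM in knockouts and 612 to 1919 CPM in controls, that of 6 alveolar type 2 markers was 1761 to 4920 CPM in knockouts and 261 to 1572 CPM in controls, and each of these 12 markers had reads in the knockouts. By edgeR 2 of the 6 club cell markers and 0 of the 6 alveolar markers rose, the alveolar ones with 0 at an unadjusted p below 0.05. In 3 club cell markers and 1 alveolar marker every knockout lay above every control. Bpifa1, a club cell marker, had a log2 fold change of -2.15 without passing, and Cyp2f2 (0.02) and Abca3 (0.00) had values near 0. The summed levels thus moved with the genotype through a part of the lists, and the part of these cells in the reductase levels was not tested. The control libraries differed among themselves in other markers: 5 basal and squamous markers summed to 6866 CPM in control 1 and to at most 61.9 CPM in any other library, and 6 fibroblast markers to 34090 CPM in control 2. Xist, the transcript of the inactive X chromosome, stood at 0.280, 1291 and 1429 CPM in knockouts 1 to 3 and at 2.33, 1497 and 1.54 CPM in controls 1 to 3, so libraries with and without it occur in both groups.

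Nqo1, which encodes NAD(P)H quinone dehydrogenase 1 (ENSMUSG00000003849), stood at 864, 1324 and 1078 CPM in knockouts 1 to 3 and at 49.6, 15.0 and 3.58 CPM in controls 1 to 3. The groups lay far apart, and within the controls control 1 was the highest and control 3 the lowest. The log2 fold change was 5.58 (SE 1.03, edgeR adjusted p = 0.0454), and it ranked 71 among the 17901 tested genes. The spread was uneven, with an SD in log2 CPM of 0.31 among knockouts and 1.88 among controls. Its call ended without control 2 (adjusted p of 0.0822 by edgeR), without the filter on low counts (0.0718) and without knockout 1, 2 or 3 (0.158, 0.222 and 0.211), while the log2 fold change stayed between 5.08 and 6.88 without any 1 library. With a knockout library left out, edgeR called at most 2 of all genes tested.

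Cbr3 and Cbr1, neighbours on the same chromosome, both rose. Cbr3 (ENSMUSG00000022947) stood at 944, 975 and 827 CPM in knockouts 1 to 3 and at 27.6, 19.0 and 4.63 CPM in controls 1 to 3. All knockouts were alike and control 3 was again the lowest library. Its log2 fold change of 5.74 ± 0.73 (SE) was the largest among the members (edgeR adjusted p = 0.0300). Cbr1 (ENSMUSG00000051483) stood at 614, 464 and 360 CPM in knockouts 1 to 3 and at 39.5, 31.2 and 42.2 CPM in controls 1 to 3. Here the controls were close to each other, control 3 being the highest, and the knockouts were the more spread group in CPM. The log2 fold change of Cbr1 was 3.67 ± 0.29 (SE), with the smallest adjusted p of the members, 0.0123 by the edgeR test. The first coding transcripts of the Cbr genes are 79.6% identical over 828 aligned bases, with a longest shared run of 50 bases, so some reads can fit both and how the authors counted them is not given in the sources used here. Without knockout 1, 2 or 3, when edgeR called 2, 0 and 0 genes in all, the calls of Cbr1 ended (adjusted p of 0.0639, 0.150 and 0.102 by edgeR). So did those of Cbr3 (0.129, 0.196 and 0.175), and that of Cbr3 also ended without control 2 (0.0608).

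Ptgr1, which encodes prostaglandin reductase 1 (ENSMUSG00000028378), had the highest CPM of the members in knockouts 2 and 3, at 2356 and 1991 CPM, with 887 CPM in knockout 1, against 23.1, 139 and 10.8 CPM in controls 1 to 3. Every knockout lay above every control, and control 2 was the highest control. The log2 fold change was 4.92 (SE 1.13, edgeR adjusted p = 0.0627), so it did not pass. It passed by limma voom (0.0316), by limma voom with a spread per genotype (0.0392), by DESeq2 (8.88e-06), and by edgeR without control 2 (0.0487) or control 3 (0.0393). Without control 2 its log2 fold change was 6.70.

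**Figure D2:**
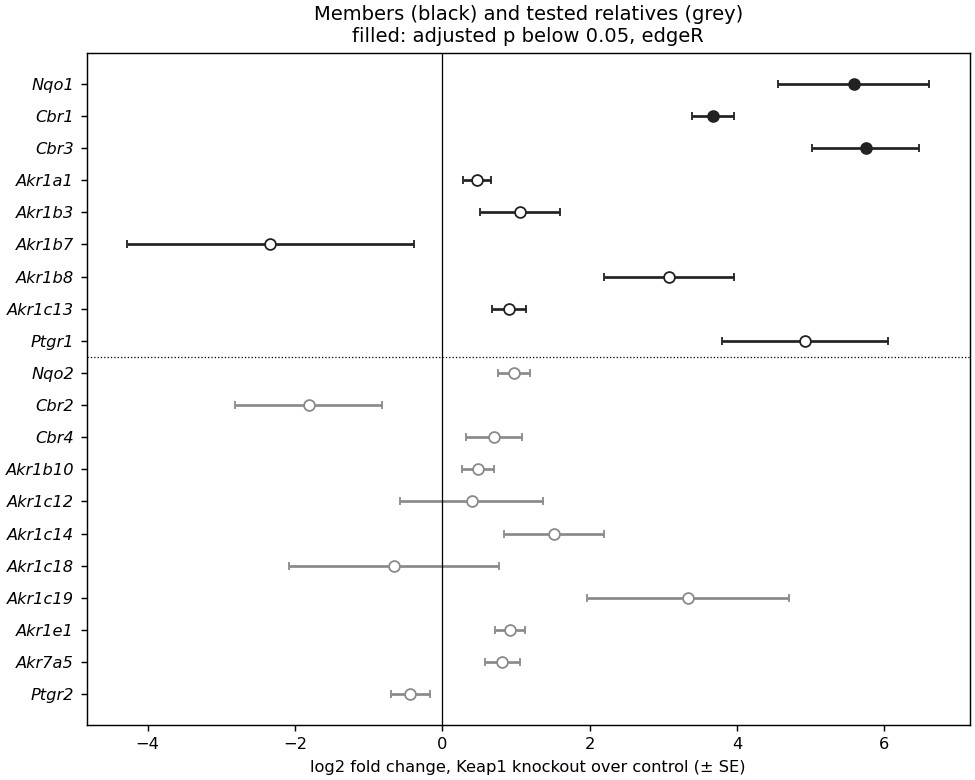
Log2 fold change (Keap1 knockout over control) with its SE for the 9 members (black) and their 11 tested relatives (grey), with filled points for an adjusted p below 0.05 by edgeR. Nqo1, Cbr1 and Cbr3 are the filled points, at 5.58, 3.67 and 5.74, and the relatives lie between -1.81 (Cbr2) and 3.34 (Akr1c19).

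Among the AKR1B genes, which lie in a cluster on chromosome 6, Akr1b8 was higher in every knockout library, Akr1b3 overlapped between the groups and Akr1b7 was close to absent. Akr1b8, an aldose reductase-like gene that reduces aliphatic and aromatic aldehydes (ENSMUSG00000029762), stood at 1045, 286 and 294 CPM in knockouts 1 to 3 and at 102, 76.4 and 15.3 CPM in controls 1 to 3. Knockout 1 held several times the level of the other knockouts. Its log2 fold change was 3.07 (SE 0.88, edgeR adjusted p = 0.0876), and without knockout 1 it was 2.19. It passed by DESeq2 (0.00263) and did not by limma voom (0.0763). Akr1b3, the aldose reductase gene, whose enzyme turns glucose into sorbitol (ENSMUSG00000001642), stood at 305, 117 and 105 CPM in knockouts 1 to 3 and at 115, 94.4 and 44.2 CPM in controls 1 to 3. Knockout 1 was again the highest library, and knockout 3 lay below control 1. It had a log2 fold change of 1.05 (SE 0.55, edgeR adjusted p = 0.243), and 0.41 without knockout 1. Akr1b7, known from the mouse vas deferens and adrenal gland (ENSMUSG00000052131), had 30, 1 and 0 reads in knockouts 1 to 3 and 39, 108 and 0 reads in controls 1 to 3 (edgeR adjusted p = 0.446), and the log2 fold change of -2.34 ± 1.95 (SE) rests on few reads. It was -1.02 without control 2 and -6.41 without knockout 1. The first coding transcript of Akr1b7 is 86.9% identical to that of Akr1b8 and 89.4% identical to that of the neighbouring Akr1b10. Shared runs reach 59 bases, so the few reads of Akr1b7 could in part belong to these genes. The transcript of Akr1b8 is 85.2% identical to that of Akr1b10 over 1204 aligned bases. Their longest shared run is 80 bases, so some reads can fit both Akr1b8 and Akr1b10.

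For the remaining aldo-keto reductases the groups lay apart and neither gene passed the test. Akr1a1, the aldehyde reductase gene whose enzyme also serves vitamin C synthesis in mice (ENSMUSG00000028692), stood at 489, 585 and 503 CPM in knockouts 1 to 3 and at 395, 416 and 326 CPM in controls 1 to 3. The margin between the groups was narrow, with a log2 fold change of 0.47 (SE 0.20, edgeR adjusted p = 0.164). Akr1c13, a member of the hydroxysteroid dehydrogenase branch (ENSMUSG00000021213), stood at 54.9, 50.9 and 53.3 CPM in knockouts 1 to 3 and at 31.0, 20.8 and 33.5 CPM in controls 1 to 3. The knockouts were nearly equal, with an SD of 0.06 in log2 CPM, and all lay above the controls. Its log2 fold change was 0.90 (SE 0.23, edgeR adjusted p = 0.0742). It passed by DESeq2 (0.00800) and by edgeR without control 3 (0.0332). The first coding transcript of Akr1c13 is 94.6% identical to that of Akr1c12 with a shared run of 228 bases, so reads can fit both genes and the level of Akr1c13 is uncertain.

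In the authors' deposited table, 6 of the 9 members had an adjusted p below 0.05, namely Nqo1, Cbr1, Cbr3, Ptgr1, Akr1b8 and Akr1c13. DESeq2 run here called the same 6 genes higher, against 11.5% of tested genes called higher by it. The log2 fold changes in the authors' deposited table were 5.57 for Nqo1, 3.66 for Cbr1 and 5.73 for Cbr3.

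**Figure D3:**
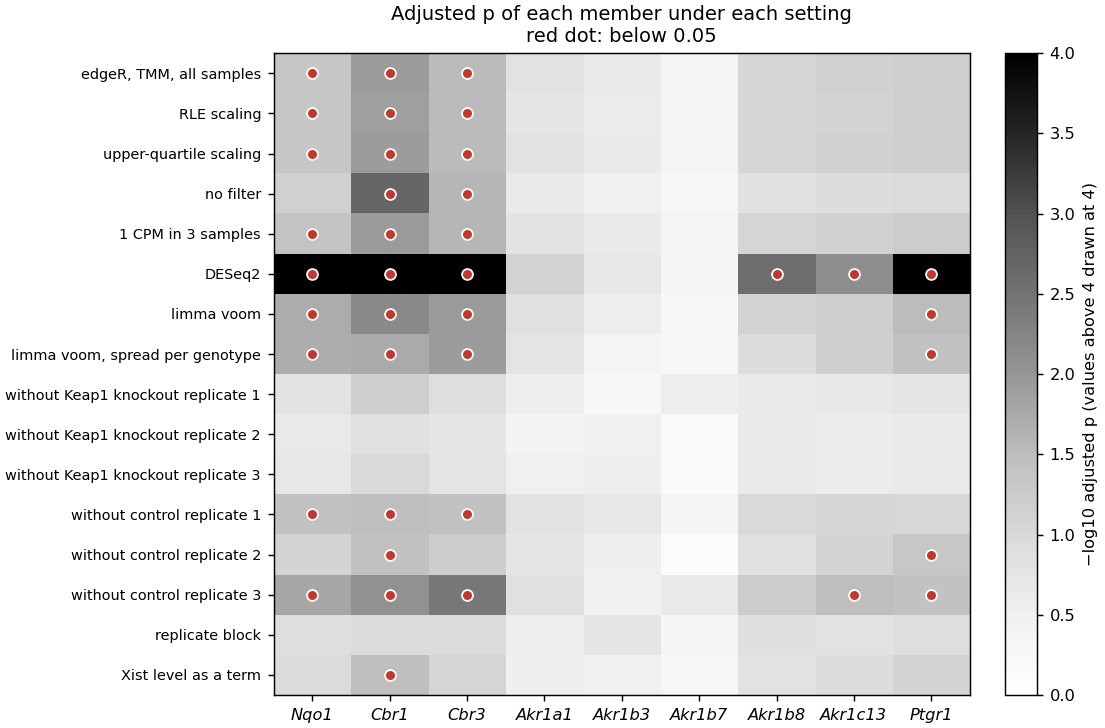
Adjusted p (grey scale, −log10, values above 4 drawn at 4) of the 9 members under each setting, with a red dot where it was below 0.05. Cbr1 was below 0.05 in 11 of 15 alternatives, Cbr3 in 9 and Nqo1 in 8. No member was when a knockout library was left out or the sample number was a block, settings with at most 2 genes called in all.

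Per length, the order of the members differed between the genotypes. On the scale of mean CPM per kilobase of the first coding transcript, knockouts held 782 ± 66.7 of Cbr3, 760 ± 333 of Ptgr1 and 701 ± 148 of Nqo1, which did not differ beyond their SD (n = 3). Next by mean came Akr1b8 at 399 ± 321, Cbr1 at 387 ± 103 and Akr1a1 at 370 ± 36.8, again within their SD. Akr1b8 also lay within its SD of Nqo1, and its mean rested on knockout 1, at 1045 CPM against 286 and 294 CPM in knockouts 2 and 3. Lower means were those of Akr1b3 at 127 ± 81.2, Akr1c13 at 42.0 ± 1.62 and Akr1b7 at 0.376 ± 0.620. In controls, Akr1a1 led with 267 ± 33.1 CPM per kilobase, above Akr1b3 at 61.0 ± 26.3 by more than their SD. Akr1b8 at 47.5 ± 32.8, Cbr1 at 30.4 ± 4.65, Ptgr1 at 25.1 ± 30.8 and Akr1c13 at 22.5 ± 5.32 CPM per kilobase followed in controls, each within the SD of its neighbour in this order. Nqo1 and Cbr3 stood at 14.6 ± 15.4 and 14.6 ± 9.92 CPM per kilobase in controls, above only Akr1b7 at 1.91 ± 2.11.

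To ask whether related genes changed unequally within a library, log2 ratios of reads (each plus 0.5) were compared between the genotypes in 5 pairs. Such a ratio does not depend on the scaling of libraries. The log2 ratio of Cbr3 to Cbr1 was 0.62, 1.07 and 1.20 in knockouts 1 to 3 and -0.52, -0.71 and -3.18 in controls 1 to 3, a difference of 2.43. Reads of Cbr3 exceeded those of Cbr1 in every knockout and fell short of them in every control. The log2 ratio of Akr1b8 to Akr1b3 was 1.77, 1.30 and 1.49 in knockouts 1 to 3 and -0.18, -0.31 and -1.53 in controls 1 to 3, a difference of 2.19. Knockout 1, where both AKR1B genes were at their highest, also had the highest ratio. For Nqo1 to its relative Nqo2, which encodes a quinone reductase that uses dihydronicotinamide riboside, the log2 ratio averaged 4.85 ± 0.12 in knockouts and -0.45 ± 1.91 in controls (SD, n = 3 each). For Ptgr1 to Ptgr2 it averaged 6.91 ± 0.84 in knockouts and 0.87 ± 1.63 in controls (SD, n = 3 each). In these 4 pairs the groups did not overlap. The exact permutation test gave a two-sided p of 0.1, also after adjustment over all 5 pairs, which is the smallest that 3 against 3 allows. How often other gene pairs separate so was not computed, and 21.5% of single tested genes had every knockout above every control. The first gene of each of these 4 pairs was itself such a gene, so the separation of the ratios is not independent of it. Without control 3 the differences were 1.58 for Cbr3 to Cbr1, 1.76 for Akr1b8 to Akr1b3, 4.36 for Nqo1 to Nqo2 and 5.38 for Ptgr1 to Ptgr2, against 2.43, 2.19, 5.30 and 6.05 with all libraries. The difference for Nqo1 to Nqo2 was 6.27 without control 1, and that for Ptgr1 to Ptgr2 was 6.96 without control 2. The log2 ratio of Akr1b7 to Akr1b8 was -9.52, -12.03 and -13.71 in knockouts 1 to 3 and -5.67, -3.83 and -9.26 in controls 1 to 3. Knockout 3 and control 3 had 0 reads of Akr1b7, so their ratios are set by the added 0.5 reads, and whether the groups separate in this pair cannot be read from these counts.

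**Figure D4:**
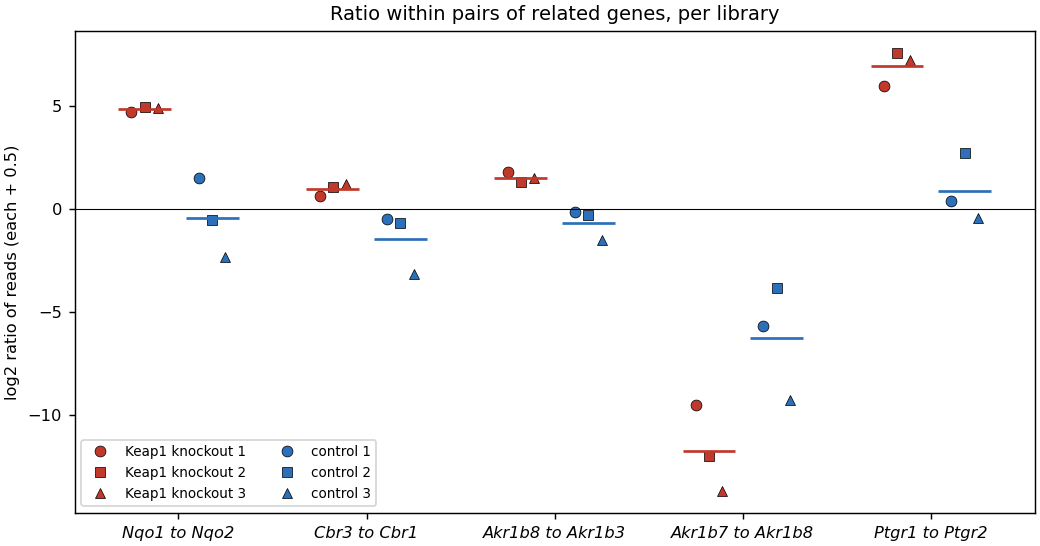
Log2 ratio of reads (each plus 0.5) within 5 pairs of related genes, per library, with Keap1 knockouts in red, controls in blue and bars at the group means. In 4 pairs every knockout lies above every control, and for Akr1b7 to Akr1b8 the points of knockout 3 and control 3 are set by the added 0.5 reads.

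Within the control group, control 3 was the lowest control in 7 of 9 members, against 41.3% of all tested genes, and the order control 1, control 2, control 3 held in 4 members (Nqo1, Cbr3, Akr1b3 and Akr1b8), against 23.3% of all tested genes. Cbr1 and Akr1c13 were the members with their highest control level in control 3. The knockouts had no order shared by all members. Knockout 1 was the highest in 5 members (Cbr1, Akr1b3, Akr1b7, Akr1b8 and Akr1c13), against 36.2% of all tested genes. It was the lowest in 3 (Nqo1, Akr1a1 and Ptgr1), against 35.2%. Knockout 3 was the highest in 0 members, against 35.2% of all tested genes. Knockout 1 was also the knockout library without Xist. Among the libraries with high Xist, 2 knockouts and 1 control, mean levels were higher in the knockout by 80.3-fold for Nqo1, 13.2-fold for Cbr1, 47.4-fold for Cbr3 and 15.6-fold for Ptgr1. Among those with low Xist, 1 knockout and 2 controls, the knockout to control folds were 32.5 for Nqo1, 15.0 for Cbr1, 58.5 for Cbr3 and 52.3 for Ptgr1. For Akr1b8 the fold was 3.80 among libraries with high Xist and 17.8 among those with low Xist, and for Akr1b3 it was 1.17 with high Xist and 3.84 with low Xist. When Xist level was added to the edgeR design, Cbr1 kept its call (adjusted p of 0.0348) and Nqo1 and Cbr3 did not (0.113 and 0.0847). With that term edgeR called 27 of the 17901 tested genes, against 771 without it. The log2 fold changes were then 5.59 for Nqo1 and 5.73 for Cbr3, against 5.58 and 5.74 without the term.

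The genes closest to Nqo1 in their profile over the 6 libraries, by the root-mean-square distance of log2 CPM centred on each gene's own mean among 12697 genes with a mean of at least 5 CPM, with the members left out, were Gsta3, a glutathione transferase gene, at 0.43, Mirt1 at 0.47 and Prm1, the gene of a sperm protamine, at 0.48. The member closest to Nqo1, Cbr3, lay at 0.45, between Gsta3 and Mirt1. Gsta3 stood at 615, 946 and 1038 CPM in knockouts 1 to 3 and at 68.6, 22.6 and 4.33 CPM in controls 1 to 3. In controls 1 to 3 Mirt1 stood at 2.89, 0.991 and 0.0498 CPM, and Prm1 at 0.355, 0.198 and 0 CPM. Where a control holds almost no reads, its log2 CPM is in part set by the small count added before taking logs. Closest to the mean profile of the 9 members were Cat, the catalase gene, at 0.13, Gm867 at 0.16 and Aldh2, the mitochondrial aldehyde dehydrogenase gene, at 0.23. Cat stood at 451, 319 and 249.7 CPM in knockouts 1 to 3 and at 88.2, 74.3 and 24.2 CPM in controls 1 to 3.

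Of 17 relatives listed from the same families, 16 had an identifier and 11 were tested. By edgeR 0 of the 11 were called, against 4.31% of all tested genes called in either direction. At an unadjusted p below 0.05, 3 were higher (Nqo2, Akr1e1 and Akr7a5), against 13.8% of all genes. Limma voom called 0, against 3.71% of all genes called higher and 2.25% lower. DESeq2 called 5 in either direction, against 11.5% higher and 14.4% lower. Without control 3 edgeR called 2, and 3209 of the 18656 genes then tested. The median log2 fold change of the 11 relatives was 0.70. In 6 relatives every knockout lay above every control and in 1, Ptgr2, every knockout lay below, against 21.5% and 19.1% of tested genes. Nqo2 stood at 33.0, 43.4 and 35.9 CPM in knockouts 1 to 3 and at 17.6, 21.6 and 18.0 CPM in controls 1 to 3 (edgeR adjusted p = 0.0594). Akr1e1 had a log2 fold change of 0.92 (SE 0.21, edgeR adjusted p = 0.0598). Akr1c19 had the largest log2 fold change of the relatives, 3.34 (SE 1.37, edgeR adjusted p = 0.163). It stood at 152, 90.8 and 107 CPM in knockouts 1 to 3 and at 3.81, 30.5 and 0.349 CPM in controls 1 to 3. Cbr2, a mitochondrial carbonyl reductase gene that is abundant in mouse club cells, was not among the 6 club cell markers. It stood at 229, 607 and 250.5 CPM in knockouts 1 to 3 and at 3076, 484 and 257 CPM in controls 1 to 3. The groups overlapped, and control 1 was by far the highest library. The 5 relatives that were matched and not tested, Akr1c6, Akr1c20, Akr1c21, Akr1cl and Akr1d1, had at most 42 reads in any library.

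Of reductases outside these families, 29 of 30 listed were tested. In edgeR 6 rose and 0 fell, against 2.42% and 1.89% of all tested genes. At an unadjusted p below 0.05, 9 were higher and 0 lower, against 13.8% and 16.9% of all genes. Txnrd1, the cytosolic thioredoxin reductase gene, rose by a log2 fold change of 3.62 ± 0.29 (SE), close to that of Cbr1, and Blvrb, which encodes biliverdin reductase B, by 3.62 ± 0.32. Hsd17b14, a hydroxysteroid dehydrogenase gene, stood at 60.5, 79.3 and 70.5 CPM in knockouts 1 to 3 and at 2.64, 3.27 and 0.448 CPM in controls 1 to 3, a log2 fold change of 5.04 ± 0.74 (SE). Hsd17b10, the gene of a mitochondrial short-chain dehydrogenase, rose by 2.45 ± 0.32, Cyb5r1, a cytochrome b5 reductase gene, by 1.79 ± 0.24, and Dhrs4, a peroxisomal carbonyl reductase gene, by 0.86 ± 0.17 on the log2 scale (SE). The median over the 29 genes was 0.41. By the edgeR test the calls of all 6 ended without knockout 1, 2 or 3, when it called 2, 0 and 0 genes in all.

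NADPH is the electron donor of most of these reductases, and aldehyde dehydrogenases and oxidases take aldehydes the other way, to acids. For all tested genes the edgeR shares were 2.42% higher and 1.89% lower, and 13.8% and 16.9% at an unadjusted p below 0.05. Of 8 NADPH supply genes 4 rose and 0 fell in edgeR, with 6 higher and 0 lower at an unadjusted p below 0.05. Those that rose were Taldo1 and Pgd of the pentose phosphate pathway, at log2 fold changes of 2.91 ± 0.25 and 3.34 ± 0.57, Pgls of the same pathway at 1.03 ± 0.20 and Idh1, the cytosolic isocitrate dehydrogenase gene, at 1.98 ± 0.23 (SE). The median over the NADPH list was 2.15. Of 12 aldehyde oxidising enzymes 4 rose and 0 fell in edgeR, with 9 higher and 1 lower at an unadjusted p below 0.05, and the median was 2.05. Aox1, the aldehyde oxidase gene, rose by 3.30 ± 0.19, Aldh1a7 by 3.04 ± 0.38, Aldh1a1, the retinaldehyde dehydrogenase gene, by 3.77 ± 0.61 and Aldh2 by 2.48 ± 0.41 on the log2 scale (SE). Aldh1a1 is also 1 of the 6 club cell markers. Without control 3 the edgeR test called 7 of the aldehyde oxidising enzymes, and 3209 of the 18656 genes then tested. Without control 2 it called 2 of the NADPH supply genes and 1 of the aldehyde oxidising enzymes, and 269 genes in all. Without knockout 1, 2 or 3 it called 0 of either list, and 2, 0 and 0 genes in all. Of 10 regulators of the KEAP1-NRF2 pathway 1 rose, Maff, which encodes a small MAF partner of NRF2, by 1.28 ± 0.23 on the log2 scale (SE), and 0 fell in edgeR, with 4 higher and 0 lower at an unadjusted p below 0.05.

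**Figure D5:**
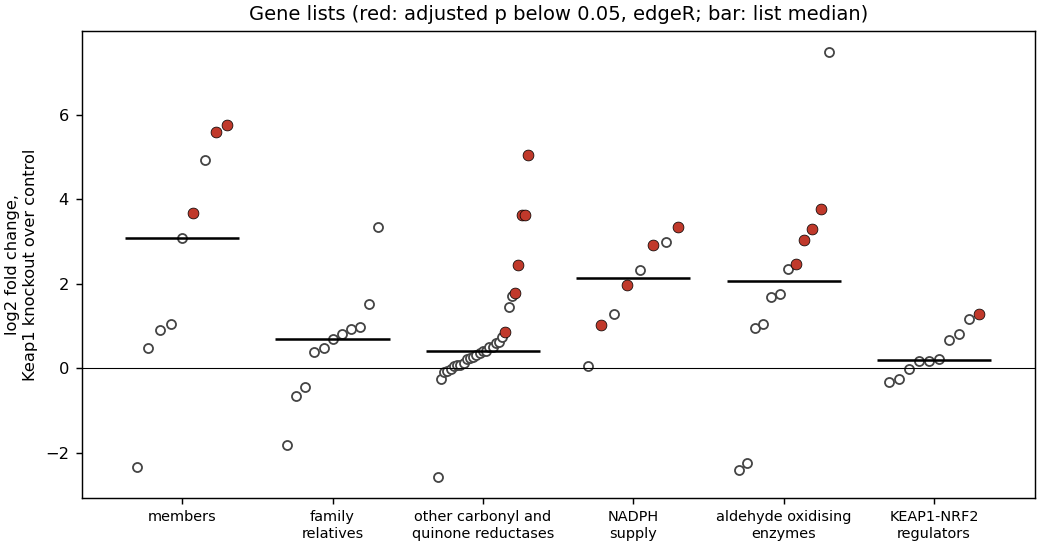
Log2 fold change (Keap1 knockout over control) of the tested genes of 6 lists, with red points for an adjusted p below 0.05 by edgeR and bars at the list medians. The medians are 3.07 for the 9 members, 0.70 for their relatives, 0.41 for other carbonyl and quinone reductases, 2.15 for NADPH supply, 2.05 for aldehyde oxidising enzymes and 0.20 for pathway regulators.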

How the data were processed

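The deposited counts are whole reads for each Ensembl identifier and are not normalized. STAR and mm39 are named in the submitters' processing notes. Which counter and annotation were used, and whether strand was, is not given in the sources used here. The authors' deposited table of their comparison, for which the submitters' processing notes name DESeq2, gives log2 fold changes, a Wald score and p-values per gene symbol. Symbols were taken from a names table that covers 52073 of the 56980 identifiers.

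Genes were filtered with filterByExpr, TMM set the library scaling, and the test was that of edgeR 4.0.16 in R 4.3.3 (quasi-likelihood, robust, two-sided, Benjamini-Hochberg over all 17901 genes tested), with genotype as the only term. SE is the log2 fold change divided by the square root of the F statistic. For centred profiles the prior count of log2 CPM was 2. Limma 3.58.1 and DESeq2 1.42.0 were alternatives. The edgeR step was also run on simulated counts in which both groups had the same spread per gene. That setting does not cover the unequal spread of these data, with a median SD in log2 CPM of 0.22 among knockouts and 0.58 among controls. Lengths and transcript identities (local alignment, Biopython 1.88) used GENCODE transcripts of GRCm38. Named genes were all members, Keap1, Nfe2l2 and Xist, the genes of each list that passed the threshold (at most 6, or the 2 with the smallest p), the relatives, and the 3 nearest profiles. Akr7a5, Akr1c19, Cbr2 and the marker genes given singly were named after their values were seen. The members and lists, from which the pairs were drawn, were chosen with earlier results of these data known.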

Additional observations from a re-analysis of the deposited data

How the results depend on the processing

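All 9 members kept the direction of their log2 fold change in the 15 alternatives run, and so did the pair ratios in theirs. DESeq2 called 4642 of the 17901 tested genes. The number of genes called by edgeR, 771, was 465 without the filter on low counts, 27 with Xist level as a term and 0 with the sample number as a replicate block (4026 at an unadjusted p below 0.05). Without 1 library it ran from 0 (knockouts 2 and 3) to 3209 (control 3), with 2 without knockout 1 and 269 without control 2. Of the 9 members, 3 in the test as reported, DESeq2 called 6, edgeR without the filter 2, with Xist level as a term 1 and with the replicate block 0, and from 0 to 5 were called without 1 library. For relatives (0 called) DESeq2 called 5, and without 1 library 0 to 2 were called. For other carbonyl and quinone reductases (6) the count was 1 with Xist level as a term, 0 with the replicate block and 0 to 8 without 1 library. For aldehyde oxidising enzymes (4) DESeq2 called 11, edgeR with Xist level as a term 1, with the replicate block 0, and 0 to 7 without 1 library. For NADPH supply (4) it was 0 with Xist level as a term, 0 with the replicate block and 0 to 5 without 1 library. The cause of these differences was not tested. Same-numbered samples did not deviate together across genes (correlations of 0.0176, 0.0001 and 0.0507). The labels state no pairing, and with 3 libraries a group these correlations cannot tell whether the numbers pair the samples. Whether a call lost under the block is a weaker effect cannot be read from them. Without the filter the median log2 fold change over all genes shifted by -0.22, over a larger set of genes. With 3 samples a group and 30, 1 and 0 reads in knockouts against 39, 108 and 0 in controls, no direction can be read for Akr1b7.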
